A study of Homo sapiens with 12 samples.

Results

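Metallothioneins are small, cysteine-rich proteins that hold zinc and copper in the cytosol, and the genes named here encode 6 of them (MT1E, MT1F, MT1G, MT1M, MT1X and MT2A) with 3 regulators of zinc: MTF1, the zinc-sensing transcription factor, SLC30A1 (ZnT1), the exporter at the plasma membrane, and SLC39A10 (ZIP10), a plasma membrane importer. These 9 genes were chosen by symbol, out of 58721 in the tables, and every symbol was found once. RNA-seq had been performed on 12 libraries of the human pancreatic ductal adenocarcinoma (PDA) lines Pa-Tu-8902 and MIA PaCa-2, in 4 groups of 3: each line without and with doxycycline (dox). All cells, the untreated ones included, carried iDox-shGOT1, a dox-inducible short hairpin against GOT1, the cytosolic aspartate transaminase, and the dox groups had received it for 5 days at 1 µg/mL by the methods and 1 µM/mL by the sample labels. Tetracyclines such as dox bind metal ions, and no library analysed here came from cells that received dox without the hairpin, so effects of dox and of GOT1 knockdown cannot be told apart here.

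When free zinc rises, MTF1 moves to the nucleus, binds short metal response elements in front of its targets and switches on the metallothionein genes and SLC30A1. The newly made proteins bind the metal or pump it out, while importers of the SLC39 family bring it in. Metallothioneins also answer to glucocorticoids and to oxidative stress, and the acinar and islet cells of the pancreas handle much zinc.

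GOT1, the targeted gene, had 3797 to 4364 normalized counts in Pa-Tu-8902 without dox and 141 to 183 with it. For MIA PaCa-2 these were 2166 to 2446 and 72.3 to 99.4, so the dox labels held in every library. Libraries held 26226537 to 43406137 counts, at which a count of 0 allows up to 0.0691 to 0.114 CPM (counts scaled to library size), a limit that covers counting error only. The line names rest on the sample titles. A supplementary sheet of the paper gives the counts of the libraries titled MIA PaCa-2 under column names of Pa-Tu-8902. All 6 ductal markers were called lower in untreated MIA PaCa-2. By title, EPCAM had means of 548 TPM in untreated Pa-Tu-8902 and 0.14 TPM in untreated MIA PaCa-2, CDH1 65.3 and 0.01 TPM and KRT7 1282 and 0.423 TPM, while KRT8 (3789 and 1445 TPM), KRT18 (2682 and 964 TPM) and KRT19 (1253 and 397 TPM) were abundant in both. Of 3 mesenchymal markers VIM (6.46 and 3932 TPM) and ZEB1 (0.727 and 10.5 TPM) were higher in MIA PaCa-2 and CDH2 (0.903 and 0.00333 TPM) in Pa-Tu-8902. Of 4 acinar, 3 endocrine and 2 endothelial markers, 0 reached a mean of 1 TPM in any group, and of 3 leukocyte markers CD68 did, in every group (3.5 to 8.77 TPM). Some markers moved with dox: CDH1 rose (0.86 on the log2 scale) and CD68 fell (-0.71) in Pa-Tu-8902, and KRT19 fell (-1.66) in MIA PaCa-2. The 4 fibroblast markers summed to 3.82 to 6.38 TPM in untreated and 18 to 21.6 TPM in dox-treated Pa-Tu-8902, nearly all COL1A1, and to 192 to 248 and 340 to 398 TPM for MIA PaCa-2, nearly all COL1A2, while DCN and PDGFRB had means of at most 0.333 TPM in every group. The part of these markers in the results was not tested. MIA PaCa-2 untreated replicate 2 stood apart from the other untreated libraries of its line (chi-square per degree of freedom of 25.5 and 27.3 against 6.4 between those), and the tests of the members that rest on it are given with and without it. Of the other metallothionein, transporter, heat shock and glucocorticoid-responsive genes called with dox in MIA PaCa-2, MT1A alone lost its call without that library. Pa-Tu-8902 libraries also differed on this measure. Untreated replicate 3 gave 8.93 and 10.8, against 2.25 between untreated replicates 1 and 2, and dox replicates 1 and 2 gave 20.6. That untreated replicate 3 was the highest of its group for MT2A, MT1E and MT1X. Nothing in the labels says that replicates came from separate cultures, so p-values measure the spread between these libraries, which may be technical.

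Coding sequences of metallothioneins are close copies of each other, which bears on how well their reads can be told apart. They are printed for the 4 metallothioneins that differ most between the lines or carry most of the signal, read from the GENCODE release 44 transcripts on GRCh38, 5′ to 3′, with every cysteine codon in capitals.
MT2A: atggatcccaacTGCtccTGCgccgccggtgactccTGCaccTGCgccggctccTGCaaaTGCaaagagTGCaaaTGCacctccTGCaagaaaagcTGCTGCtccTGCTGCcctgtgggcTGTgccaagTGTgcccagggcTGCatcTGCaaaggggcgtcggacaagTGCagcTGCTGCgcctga
MT1E: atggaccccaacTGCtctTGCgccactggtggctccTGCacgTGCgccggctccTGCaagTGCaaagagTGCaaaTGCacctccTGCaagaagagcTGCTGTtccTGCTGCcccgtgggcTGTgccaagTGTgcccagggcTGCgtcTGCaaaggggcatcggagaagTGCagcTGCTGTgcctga
MT1G: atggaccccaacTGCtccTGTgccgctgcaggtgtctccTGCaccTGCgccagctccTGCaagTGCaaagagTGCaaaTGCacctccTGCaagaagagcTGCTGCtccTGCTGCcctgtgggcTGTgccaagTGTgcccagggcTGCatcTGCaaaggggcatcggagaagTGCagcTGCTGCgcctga
MT1F: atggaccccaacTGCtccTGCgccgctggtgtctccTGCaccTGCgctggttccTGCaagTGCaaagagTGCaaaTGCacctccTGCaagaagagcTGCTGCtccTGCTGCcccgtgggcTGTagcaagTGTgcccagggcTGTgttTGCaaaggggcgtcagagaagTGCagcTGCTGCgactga
Cysteine filled 20 of 61 codons in MT1E, MT1F, MT1M, MT1X and MT2A (32.8%) and 20 of 62 in MT1G (32.3%). Any 2 of the 6 coding sequences were identical at 88.7% to 93.7% of aligned positions, with MT1F and MT1X the least and MT1G and MT2A the most alike. Of all stretches of 75 bases, 36.1% of those of MT1X occurred in another gene (MT1G, the pseudogene MT1XP1 and 1 gene without a symbol), as did 6.55% for MT1G, 0.794% for MT1E and 0% for MT2A, MT1F and MT1M. At 150 bases, the length of 1 read, the share was 6.67% for MT1X and 0% for the other metallothioneins. RSEM splits reads that fit several genes by estimate, and 14 of the 51 metallothionein values above 0 were not whole numbers (tolerance 1e-09), so values of MT1X and MT1G carry this uncertainty.

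The 6 metallothioneins lie in 1 cluster on chromosome 16 (GRCh38, GENCODE release 44). MT2A spans 56608584 to 56609497, MT1E 56625475 to 56627112, MT1M 56632659 to 56633981, MT1F 56657731 to 56660698 and MT1X 56682470 to 56684196, all on the plus strand, and MT1G spans 56666730 to 56668065 on the minus strand. From MT2A to MT1X the cluster runs for 75.6 kb. MTF1 (37809574 to 37859592) and SLC30A1 (211571568 to 211579161) lie on the minus strand of chromosome 1, and SLC39A10 (195575977 to 195737702) on the plus strand of chromosome 2.

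Promoter windows of RefSeq (GRCh38.p14) were held for 5 of the 9 genes: MT1X, MT2A, MTF1, SLC30A1 and SLC39A10. The 250 bases before the start site are printed for the 3 that hold a match to the core of the metal response element, searched as TGCACNC or TGCGCNC on both strands, with matches in capitals. These windows are chr16:56608334-56608583 for MT2A and chr16:56682220-56682469 for MT1X, both plus strand, and chr1:211579162-211579411 for SLC30A1, minus strand.
MT2A: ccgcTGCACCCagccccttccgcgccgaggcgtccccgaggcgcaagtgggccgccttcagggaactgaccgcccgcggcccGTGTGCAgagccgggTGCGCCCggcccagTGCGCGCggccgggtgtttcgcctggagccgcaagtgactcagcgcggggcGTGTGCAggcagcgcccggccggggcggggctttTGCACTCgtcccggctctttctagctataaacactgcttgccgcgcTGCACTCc
MT1X: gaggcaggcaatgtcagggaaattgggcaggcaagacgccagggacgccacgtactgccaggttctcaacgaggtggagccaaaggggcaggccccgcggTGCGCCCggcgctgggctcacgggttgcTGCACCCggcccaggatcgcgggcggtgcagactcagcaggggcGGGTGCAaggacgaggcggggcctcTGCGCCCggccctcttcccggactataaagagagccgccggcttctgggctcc
SLC30A1: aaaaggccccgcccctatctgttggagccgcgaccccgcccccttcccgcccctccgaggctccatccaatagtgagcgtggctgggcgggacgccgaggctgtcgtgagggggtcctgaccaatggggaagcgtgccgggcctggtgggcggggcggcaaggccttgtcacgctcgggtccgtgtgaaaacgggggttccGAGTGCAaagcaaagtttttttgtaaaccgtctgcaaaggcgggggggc
MT2A had 7 matches, from 8 to 246 bases before the start, 5 on its own strand and 2 on the opposite one. MT1X had 4, from 53 to 150 bases before the start, and SLC30A1 had 1, on the opposite strand at 49 bases. No match overlapped another, and MTF1 and both windows of SLC39A10 had 0. Windows were also held for metallothioneins outside the 9 genes: MT1H had 8 matches, MT1B 3 and MT4 3. Group means of these genes were 0 to 0.133 TPM, beside 902 to 1916 TPM for MT2A and 52.2 to 518 TPM for MT1X. MT1E, MT1F, MT1G and MT1M had no window, and whether matches follow expression was not tested. Among 35116 promoter windows, 24.8% held at least 1 match, 0.37% at least 4 and 0.0313% at least 7. A match describes letters and does not show binding.

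**Figure D1:**
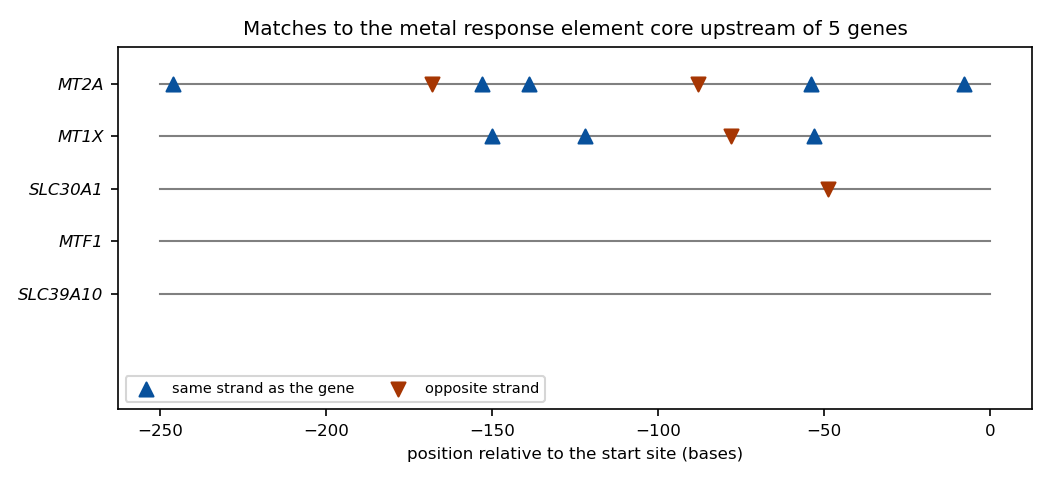
Matches to the metal response element core (triangles; direction and colour give the strand) along the 250 bases before the start site of 5 genes, with position in bases on the horizontal axis. MT2A has 7 matches, MT1X has 4, SLC30A1 has 1 and MTF1 and SLC39A10 have 0.

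Untreated lines differed in which metallothioneins they expressed. MT2A was high in both, at 1223, 1280 and 1322 TPM for Pa-Tu-8902 and 1825, 1984 and 1940 TPM for MIA PaCa-2, and ranked 125th and 96th by mean TPM among all genes. MT1E and MT1X were abundant in MIA PaCa-2 and lower in Pa-Tu-8902, MT1G was seen in MIA PaCa-2, MT1F in Pa-Tu-8902 and MT1M in neither. TPM scales reads to transcript length and to the library's total, and allows levels of different genes to be compared. For these short genes RSEM's effective length was small and varied by library (146 to 210 bases for MT1G, 190 to 224 for MT1X, 512 to 549 for MT2A), so fold changes below come from counts.

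MT1E had 136, 147 and 151 TPM in untreated Pa-Tu-8902 and 1253, 1545 and 1307 TPM in untreated MIA PaCa-2. In normalized counts (counts divided by the TMM-scaled library size relative to the mean of the 12 libraries) it went from 1523 ± 99.2 for Pa-Tu-8902 up to 14858 ± 3249 for MIA PaCa-2 (SD, n = 3), with a log2 difference of 3.30 (SE 0.13, adjusted p = 3.52e-11). Tests were quasi-likelihood tests in edgeR, and p-values were adjusted by Benjamini-Hochberg over all genes tested. A gene was called where its adjusted p was under 0.01 and it differed 1.5-fold or more. The highest MIA PaCa-2 value came from untreated replicate 2, and without it the difference was 3.16 (adjusted p = 1.53e-14).

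MT1X, at 60.4, 65.2 and 77.1 TPM in untreated Pa-Tu-8902, had 496, 547 and 511 TPM in MIA PaCa-2. Its log2 difference in counts was 3.01 (SE 0.12, adjusted p = 3.71e-11), or 2.92 without MIA PaCa-2 untreated replicate 2. MT2A differed less, by 0.65 on the log2 scale (SE 0.09, adjusted p = 1.49e-05), a 1.56-fold difference. That is just past the limit of 1.5, and the call was lost, at 0.52, 0.55 and 0.58, without Pa-Tu-8902 untreated replicate 1, Pa-Tu-8902 untreated replicate 2 or MIA PaCa-2 untreated replicate 2, with adjusted p still below 0.01 each time.

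MT1G and MT1F marked opposite lines. MT1G had 683.5, 838.7 and 715.8 counts in untreated MIA PaCa-2 and 0, 0 and 2 in untreated Pa-Tu-8902, a ratio of counts per library size of 1168 (exact 95% counting interval 323 to 9651). MT1F had 92, 113 and 108 counts in untreated Pa-Tu-8902 and 0 in each untreated MIA PaCa-2 library, and was at least 100-fold higher against a floor of 3 counts over the group. MT1M was at 0 in 11 of 12 libraries and had 2 counts in MIA PaCa-2 dox replicate 2. The 2 counts of MT1G and the single count of MT1F lay under the limit that a count of 0 allows.

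The regulators were all higher in untreated MIA PaCa-2. SLC30A1 had 1301, 1310 and 1314 normalized counts for Pa-Tu-8902 against 2903, 2553 and 2648 for MIA PaCa-2, a log2 difference of 1.06 (SE 0.08, adjusted p = 2.13e-08). SLC39A10 had 1093, 1083 and 1052 against 3435, 2683 and 3017, a difference of 1.52 (SE 0.10, adjusted p = 5.82e-09), and MTF1 had 732, 685 and 657 against 1260, 988 and 1170, a difference of 0.74 (SE 0.10, adjusted p = 1.84e-05). In none of these did the groups overlap. How many of all genes also had groups apart was not counted, so groups being apart is description only, here and below. The differences without MIA PaCa-2 untreated replicate 2 were 1.15, 1.65 and 0.88, all called. MTF1 lost its call when TPM values were tested with limma (0.57 and 0.67 with pseudocounts of 1 and 0.1).

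All 8 tested members were called between the untreated lines, 7 higher in MIA PaCa-2 and MT1F higher in Pa-Tu-8902. This must be read against 58.1% of all 15608 genes tested that were called, and 29.3% called higher in MIA PaCa-2. MT1G and MT1F passed the count filter only through the line where they were high, so their calls carry no weight in this count.

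**Figure D2:**
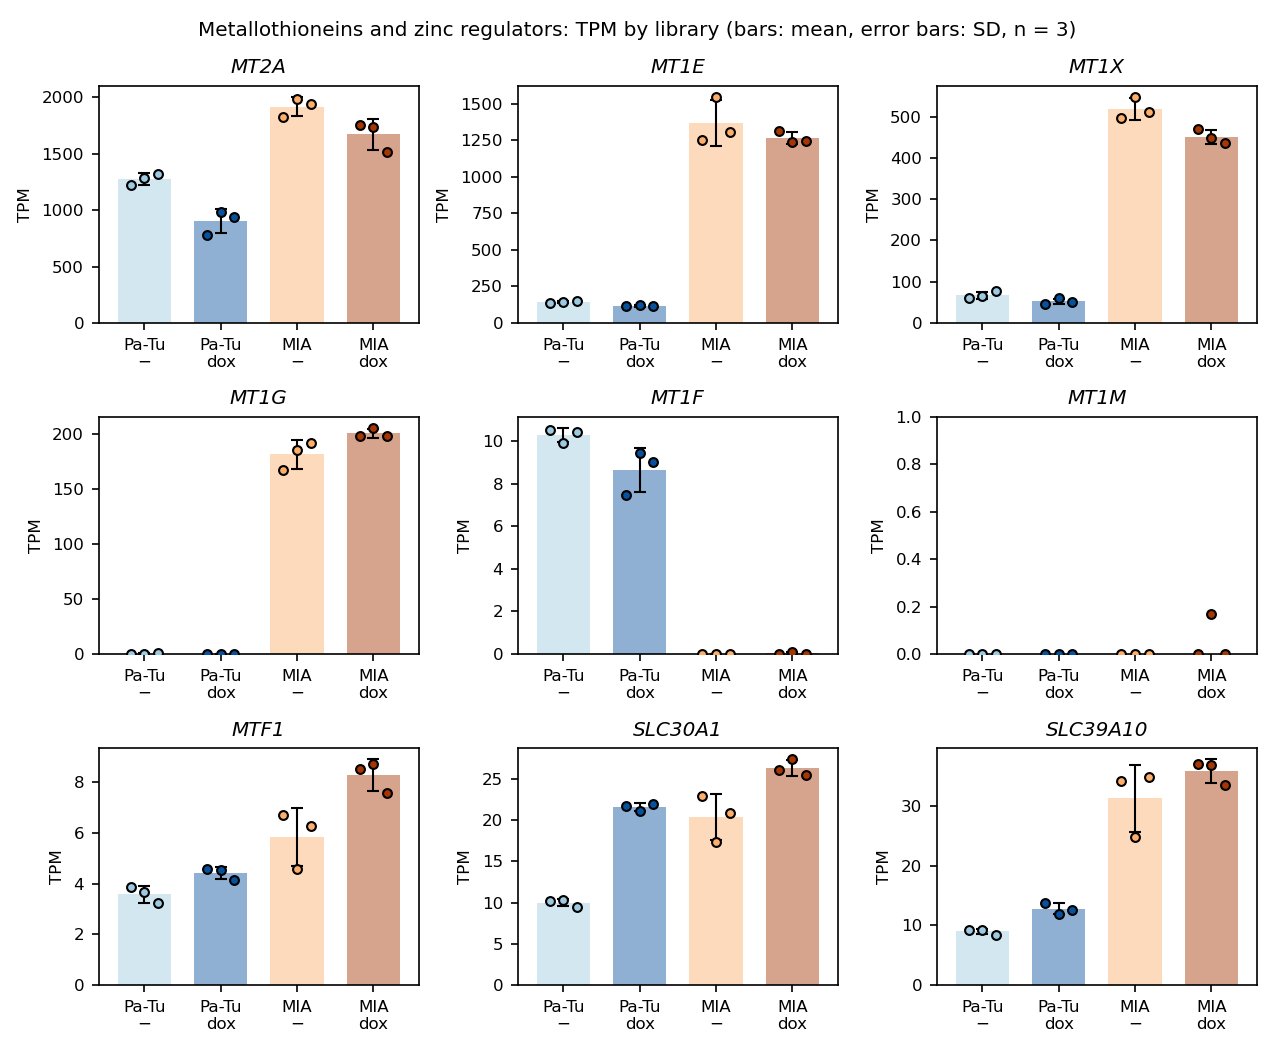
TPM of the 9 genes (vertical axes, each from 0) in the 12 libraries, with points for libraries, bars for means and error bars for the SD of 3 libraries; MT1M is shown as points. MT1G is near 0 in Pa-Tu-8902 and MT1F near 0 in MIA PaCa-2, and SLC30A1 in Pa-Tu-8902 goes from 10 to 21.6 TPM with dox.

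The summed level of all 21 annotated metallothionein genes and pseudogenes depends less on how reads were split. It was 1432, 1505 and 1562 TPM in untreated Pa-Tu-8902 and 3944, 4473 and 4170 TPM in untreated MIA PaCa-2, and these groups were far apart. MT2A made up 84.6% to 85.4% of the Pa-Tu-8902 sum and 44.4% to 46.5% of the MIA PaCa-2 sum. MT1E took 9.5% to 9.76% and 31.3% to 34.5%, MT1X 4.22% to 4.93% and 12.2% to 12.6%, and MT1G 4.13% to 4.59% in MIA PaCa-2.

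The other metallothionein genes were mostly silent. Of the 15 annotated genes and pseudogenes that are not members, 2 had enough counts to be tested, MT1A and the pseudogene MT1L, both in MIA PaCa-2. MT1A had 237, 244 and 230 counts in untreated MIA PaCa-2 and 0 in all 6 Pa-Tu-8902 libraries, at least 247-fold higher than a floor of 3 counts over the untreated group. MT1L had 586, 680 and 591 counts against 6, 0 and 5, a ratio of counts per library size of 176 (exact 95% counting interval 98.3 to 354). MT3, MT4 and MT1H were at 0 TPM in every group mean.

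**Figure D3:**
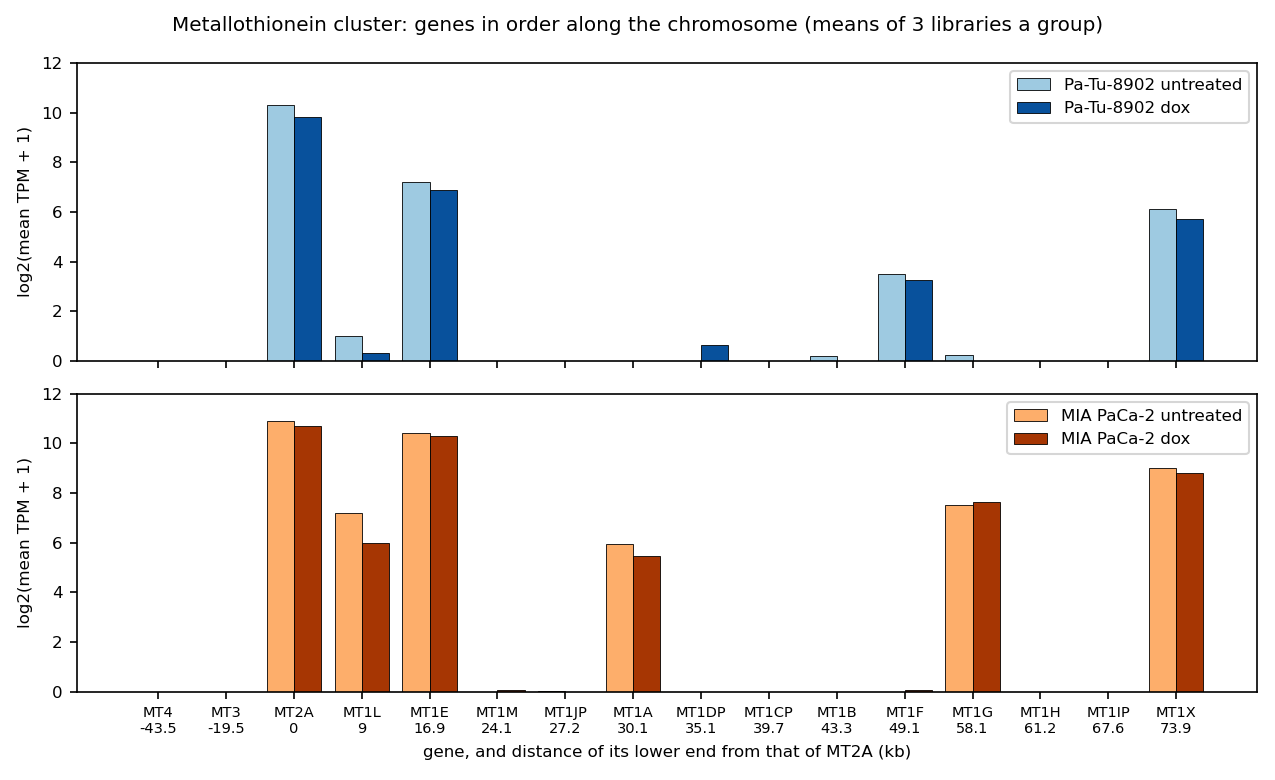
Mean TPM on a log2(TPM + 1) scale (vertical axis) of the 16 metallothionein genes and pseudogenes of the chromosome 16 cluster, in their order along it, with the distance in kb from MT2A; upper panel Pa-Tu-8902, lower panel MIA PaCa-2, light bars untreated and dark bars dox. MT2A, MT1E and MT1X stand high in both lines, MT1F in Pa-Tu-8902, and MT1L, MT1A and MT1G in MIA PaCa-2.

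With dox in Pa-Tu-8902, SLC30A1 was 2.04-fold higher, while the tested metallothioneins had lower means. SLC30A1 had 1301, 1310 and 1314 normalized counts in untreated and 2606, 2684 and 2717 in dox-treated libraries. It rose by a log2 fold change of 1.03 (SE 0.05, adjusted p = 5.10e-08), groups did not overlap, and the value stayed between 1.03 and 1.10 with every call kept over 17 alternatives. In TPM it went from 10 ± 0.433 up to 21.6 ± 0.471 (SD, n = 3), a level that overlapped that of untreated MIA PaCa-2 (17.4 to 22.9 TPM).

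MT2A had 16057, 16697 and 18140 normalized counts in untreated Pa-Tu-8902 and 9620, 13135 and 11623 with dox. The groups did not overlap, and the log2 fold change was -0.56 (SE 0.09, adjusted p = 5.49e-04). It passed the adjusted p limit and not the fold limit, being 1.48-fold lower. Dox replicate 2 had the highest value of its group, and without it MT2A was called at -0.66. It was also called without untreated replicate 1, at -0.60. Leaving out dox replicate 1, the lowest of its group, gave -0.43, and leaving out untreated replicate 3, the highest of its group, gave -0.52. Neither was called.

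MT1E had 1433, 1506 and 1629 normalized counts untreated and 1093, 1241 and 1135 with dox, with a log2 fold change of -0.39 (SE 0.07, adjusted p = 5.16e-04). With 1 library left out it ranged from -0.43 to -0.34. MT1X had 318, 340 and 394 untreated and 221, 325 and 236 with dox. These overlapped, and its log2 fold change of -0.42 (SE 0.15, adjusted p = 0.0331) missed the p limit. Without dox replicate 2 it was called at -0.60. It was at -0.29 (adjusted p = 0.117) without dox replicate 1 and at -0.33 (adjusted p = 0.104) without untreated replicate 3. MT1F had 107, 104 and 118 untreated and 75.8, 100 and 84.7 with dox, with a log2 fold change of -0.32 (SE 0.15, adjusted p = 0.0976). MT1G and MT1M had too few counts to be tested in this line.

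SLC39A10 was higher with dox in Pa-Tu-8902, at 1439, 1415 and 1428 normalized counts against 1093, 1083 and 1052, a log2 fold change of 0.41 (SE 0.05, adjusted p = 6.55e-05) that stayed under the fold limit. MTF1 had 732, 685 and 657 untreated and 812, 806 and 751 with dox. The log2 fold change of 0.20 (SE 0.07, adjusted p = 0.0362) missed the p limit. So 1 of 7 tested members, SLC30A1, was called, where 16.3% of all 14949 genes tested were. By adjusted p alone 4 of 7 passed, SLC30A1 and SLC39A10 higher and MT2A and MT1E lower, where 38.1% of all genes did. The median log2 fold change of the 4 tested metallothioneins was -0.41, beside 0.0014 over all genes tested, and 0 of them were called by edgeR or by DESeq2 (3 had an unadjusted p below 0.05). The share of all genes under that unadjusted limit is not given, here or below. At an adjusted p below 0.05, 3792 genes higher and 3827 lower of the 14949 passed.

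In MIA PaCa-2, no member was called with dox by edgeR or by DESeq2, where edgeR called 12% of all 14589 genes tested. An unadjusted p below 0.05 was seen for 4 of 7 tested. At an adjusted p below 0.05, 2922 genes higher and 3194 lower of the 14589 passed. By adjusted p alone 2 of 7 passed, SLC30A1 and MTF1, both higher, where 27.2% of all genes did.

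SLC30A1 had 2903, 2553 and 2648 normalized counts in untreated MIA PaCa-2 and 3319, 3479 and 3355 with dox. The groups did not overlap, and the log2 fold change was 0.33 (SE 0.07, adjusted p = 0.0021), or 0.28 (adjusted p = 4.06e-04) without untreated replicate 2. MTF1 had 1260, 988 and 1170 untreated and 1600, 1640 and 1473 with dox, a log2 fold change of 0.46 (SE 0.09, adjusted p = 0.00167), or 0.36 (adjusted p = 1.49e-04) without that library. SLC30A1 missed the p limit without untreated replicate 3 or any 1 dox library (adjusted p of 0.0106 to 0.02), and MTF1 without dox replicate 1 or 2 (0.0106 and 0.0132). SLC39A10, at 3435, 2683 and 3017 against 3440, 3402 and 3301, overlapped between groups (log2 fold change 0.15, SE 0.08, adjusted p = 0.163), and was at 0.06 (adjusted p = 0.416) without untreated replicate 2.

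MT2A had 23603, 30248 and 24887 normalized counts untreated and 22667, 22278 and 19615 with dox in MIA PaCa-2, a log2 fold change of -0.28 (SE 0.09, adjusted p = 0.031). MT1X had 2523, 3341 and 2547 against 2372, 2215 and 2101 (-0.33, SE 0.10, adjusted p = 0.0237). For both the groups did not overlap, the p limit was missed, and without untreated replicate 2, the highest library, the values were -0.18 (adjusted p = 0.0156) and -0.19 (adjusted p = 0.0106).

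MT1E rested on the same library. It had 12840, 18606 and 13129 untreated and 13557, 12836 and 12779 with dox, and its log2 fold change of -0.18 (SE 0.12, adjusted p = 0.245) became 0.003 without untreated replicate 2. MT1G had 662, 900 and 737 untreated and 781, 789 and 733 with dox, with a log2 fold change of 0.01 (SE 0.10, adjusted p = 0.967), or 0.13 (adjusted p = 0.187) without untreated replicate 2. In TPM the dox libraries of MT1G (198, 205 and 198) all lay above the untreated ones (167, 185 and 192), which the counts did not show. MT1F was at 0 in every MIA PaCa-2 library but dox replicate 2, which had 1 count.

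MT1A and MT1L, the other metallothionein genes with counts, were called lower with dox in MIA PaCa-2. MT1L fell from 567, 729 and 608 to 239, 264 and 243 normalized counts (log2 fold change -1.35, SE 0.11, adjusted p = 3.28e-06) and was called under all 15 other settings. MT1A fell from 229, 262 and 237 to 148, 168 and 153 (-0.63, SE 0.11, adjusted p = 0.00112), and was not called in 4 of 15 other settings: without untreated replicate 2 (-0.58), with effective lengths as offsets (-0.56, adjusted p = 0.0102) and with limma on TPM at both pseudocounts (-0.49 each).

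**Figure D4:**
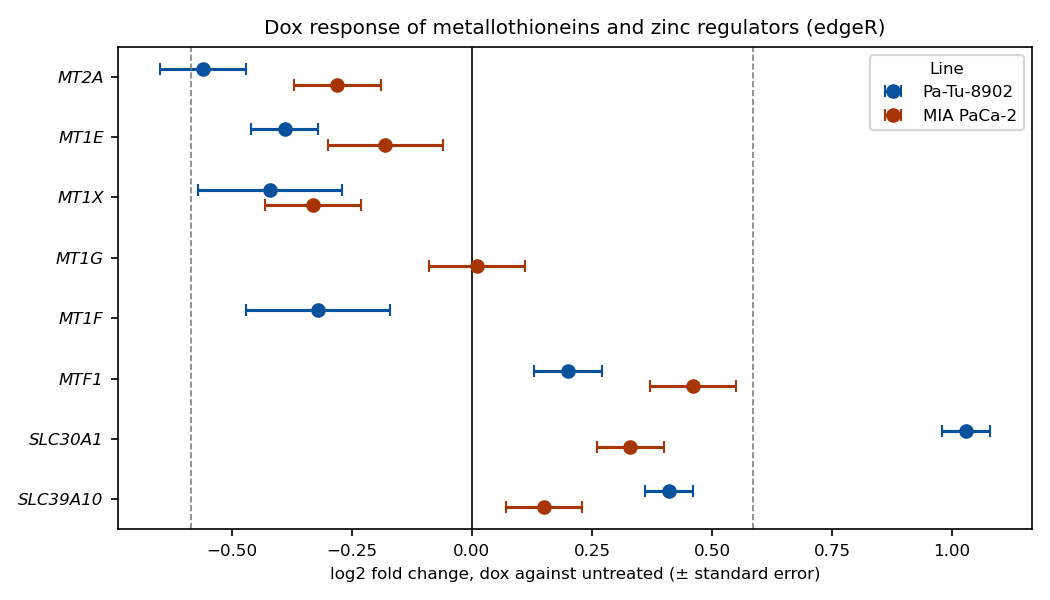
Log2 fold change with dox (horizontal axis; error bars, standard error from edgeR) of the members with enough counts in Pa-Tu-8902 (blue) and MIA PaCa-2 (brown); dashed lines mark 1.5-fold. SLC30A1 in Pa-Tu-8902, at 1.03, is the only point past a dashed line, and MT2A is at -0.56 there and at -0.28 for MIA PaCa-2.

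The summed metallothionein level of Pa-Tu-8902 went from a mean of 1500 ± 65.3 without dox to 1086 ± 120 TPM with it (SD, n = 3), a log2 ratio of -0.47, and the 3 dox libraries (952, 1182 and 1125) all lay below the untreated ones. In MIA PaCa-2 it went from 4196 ± 266 to 3698 ± 176 TPM (SD, n = 3), a log2 ratio of -0.18, and its dox libraries (3845, 3747 and 3503) also lay below the untreated ones. No test was made of these sums. The make-up stayed close: MT2A held 82% to 83.6% of the sum in dox-treated Pa-Tu-8902 and 43.2% to 46.3% in dox-treated MIA PaCa-2.

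The dox response of SLC30A1 differed between the lines. The interaction contrast over all 12 libraries, Pa-Tu-8902 response minus MIA PaCa-2 response, was 0.70 on the log2 scale (SE 0.08, adjusted p = 5.62e-06), and it was called under every alternative, between 0.64 and 0.76. SLC30A1 was the 1 member called among 8 tested, beside 10.4% of all 16544 genes. The contrast was -0.28 for MT2A (SE 0.15, adjusted p = 0.188), -0.21 for MT1E (SE 0.15, adjusted p = 0.355), -0.09 for MT1X (SE 0.19, adjusted p = 0.802), -0.27 for MTF1 (SE 0.12, adjusted p = 0.107) and 0.26 for SLC39A10 (SE 0.10, adjusted p = 0.0746). A missed threshold does not show that these responses were alike. Without MIA PaCa-2 untreated replicate 2, MT1E (-0.39, adjusted p = 0.00341) and SLC39A10 (0.36, adjusted p = 0.00336) passed the p limit and not the fold limit, while MT2A was at -0.38 (adjusted p = 0.0418), MT1X at -0.21, MTF1 at -0.16 and SLC30A1 at 0.76. MT1F and MT1G have 1 line at or near 0, and their contrasts are not read.

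Ordered by level in TPM, SLC30A1 was highest in dox-treated MIA PaCa-2 (26.3), followed by dox-treated Pa-Tu-8902 (21.6) and untreated MIA PaCa-2 (20.4), which overlapped, and then untreated Pa-Tu-8902 (10). SLC39A10 had the order 35.9, 31.3, 12.8 and 8.99 TPM for MIA PaCa-2 with and without dox and Pa-Tu-8902 with and without dox, and the MIA PaCa-2 groups overlapped. MTF1, at 8.27, 5.84, 4.41 and 3.58 TPM in the same order, overlapped between untreated MIA PaCa-2 and dox-treated Pa-Tu-8902. For MT2A and MT1X all 4 groups were apart in TPM, in the order MIA PaCa-2 untreated, MIA PaCa-2 dox, Pa-Tu-8902 untreated and Pa-Tu-8902 dox. The Pa-Tu-8902 groups of MT1X were apart only by 60.4 against 59.8 TPM. In normalized counts they overlapped (318 to 394 untreated, 221 to 325 with dox). MT1E had the same order of groups, and its MIA PaCa-2 groups overlapped.

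Other zinc transporters moved in both directions. Most SLC30 proteins move zinc out of the cytosol. Of the 9 family members besides SLC30A1, 5 were tested in Pa-Tu-8902. There 0 were called by edgeR or by DESeq2, where edgeR called 16.3% of all genes tested, and 3 had an unadjusted p below 0.05. SLC30A9 had a log2 fold change of -0.44 there and -0.47 in MIA PaCa-2, past the p limit alone. In MIA PaCa-2, SLC30A4, which loads zinc into vesicles, fell from 282 ± 32.4 to 162 ± 10.8 normalized counts (SD, n = 3; log2 fold change -0.79, SE 0.12, adjusted p = 3.66e-04), the 1 of 6 tested that was called. This 1 of 6 stands beside 12% of all genes tested in that line. SLC30A4 was not called when TPM values were tested with limma. The median log2 fold change of the tested SLC30 genes besides SLC30A1 was -0.28 for Pa-Tu-8902 and -0.10 for MIA PaCa-2, beside 0.0014 and -0.0089 over all genes.

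SLC39 proteins bring zinc into the cytosol, and 10 of the 13 besides SLC39A10 were tested in each line. In Pa-Tu-8902 1 was called (16.3% of all genes were): SLC39A7 (ZIP7), which releases zinc from the endoplasmic reticulum, rose from 5416 ± 113 to 8514 ± 294 normalized counts (SD, n = 3; log2 fold change 0.65, SE 0.05, adjusted p = 1.26e-06). In MIA PaCa-2 2 were called, beside 12% of all genes. SLC39A8 (ZIP8), an importer of zinc and manganese, rose from 1040, 905 and 885 to 3090, 2995 and 3210 normalized counts (1.72, SE 0.07, adjusted p = 5.03e-08), and SLC39A9 (ZIP9) fell from 2368 ± 88.6 to 1258 ± 43.7 (SD, n = 3; -0.91, SE 0.06, adjusted p = 1.16e-06). SLC39A8 in Pa-Tu-8902 had 698, 692 and 816 untreated and 657, 614 and 627 with dox (-0.21, adjusted p = 0.0404), and the difference between the lines was -1.93 (SE 0.11, adjusted p = 1.40e-09).

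**Figure D5:**
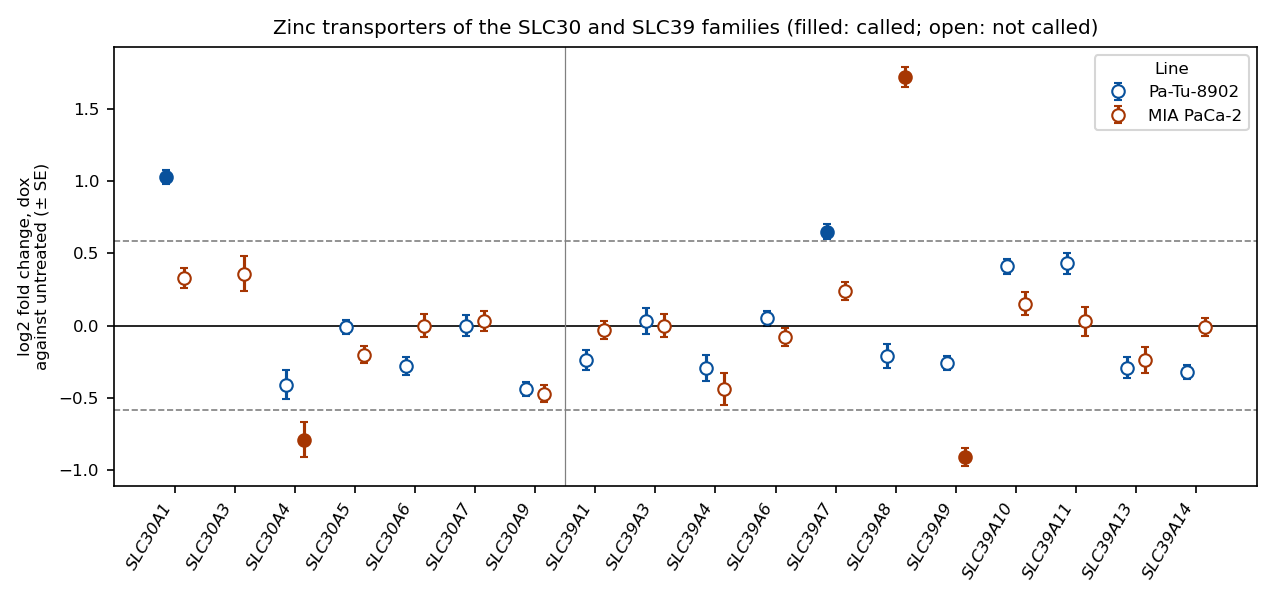
Log2 fold change with dox (vertical axis; error bars, standard error from edgeR) of the tested SLC30 and SLC39 transporters in Pa-Tu-8902 (blue) and MIA PaCa-2 (brown); filled points were called, and dashed lines mark 1.5-fold. SLC30A1 (1.03) and SLC39A7 (0.65) are filled in Pa-Tu-8902, and SLC39A8 (1.72), SLC39A9 (-0.91) and SLC30A4 (-0.79) in MIA PaCa-2.

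Copper shares the metallothioneins with zinc. Of 12 genes of copper handling, from the importer SLC31A1 to the exporters ATP7A and ATP7B, edgeR called 0 with dox in either line, where 16.3% and 12% of all genes tested were called. An unadjusted p below 0.05 was seen for 6 genes in the first line and 3 in the second, and DESeq2 called ATP7A alone, in Pa-Tu-8902 (0.59, adjusted p = 8.14e-07). The log2 fold changes ranged from -0.34 to 0.58 for Pa-Tu-8902 and from -0.23 to 0.40 for MIA PaCa-2.

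Among 10 heat shock and heme oxygenase genes that metals can induce, HMOX1, which breaks down heme, rose in both lines, from 163, 179 and 220 to 1299, 1454 and 1493 normalized counts in Pa-Tu-8902 (log2 fold change 2.92, SE 0.10, adjusted p = 1.24e-08) and from 391, 368 and 363 to 1287, 1325 and 1246 in MIA PaCa-2 (1.78, SE 0.07, adjusted p = 2.92e-08). DNAJB1, a co-chaperone of the heat shock response, fell in both (-1.30 and -0.86), and the other 8 were not called in either line. The medians of the list were -0.13 and 0.25, and 2 of 10 called in each line stand beside 16.3% and 12% of all genes.

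Glucocorticoid-responsive genes moved in both directions. Of 8 tested in Pa-Tu-8902, NR3C1, the glucocorticoid receptor (0.79), TSC22D3 (1.27) and the transcription factor CEBPD (1.42) rose and PER1 fell (-0.63). In MIA PaCa-2 CEBPD rose (1.5) while TSC22D3 (-1.22) and FKBP5 (-0.59) fell. PER1, TSC22D3 in Pa-Tu-8902 and FKBP5 lost their calls in 4, 4 and 9 of 15 other settings. The medians of the list were 0.12 and -0.23. These counts, 4 of 8 and 3 of 8, stand beside 16.3% and 12% of all genes tested.

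Gene counts sum over transcripts, and the isoform tables showed which were read. MT2A-201 made up 98.2% to 99.3% of the TPM of MT2A over the 12 libraries and MT1X-201 97.9% to 99.3% of that of MT1X. MT1G in MIA PaCa-2 was split between MT1G-201 (75% to 79.5%) and MT1G-202 (18.7% to 25%), and MT1E between MT1E-201 (83.4% to 92.9%) and MT1E-203 (6.23% to 16.6%). For SLC39A10 the processed transcript SLC39A10-208 took 1.5% to 4.98% for Pa-Tu-8902 and 12.4% to 22.2% for MIA PaCa-2. These shares are estimates and were not tested. With dox in MIA PaCa-2 they moved without overlap for MT1E-201 (88.9% to 90.3% untreated, 91.4% to 92.9% with dox) and MT1E-203 (8.95% to 10.1% and 6.23% to 7.83%). These mirror each other, being shares of the same gene. So did SLC39A10-201, the main coding transcript (64.5% to 76.6% and 63% to 64%), and SLC39A10-205, marked for nonsense-mediated decay (0.258% to 6.31% and 7.65% to 11.9%). How many transcripts of other genes also moved without overlap was not counted, so these shifts are description only.

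MT2A, MT1E and MT1X, the metallothioneins with enough counts in both lines, varied together across libraries. MIA PaCa-2 untreated replicate 2, the highest library of its line for each of them, is included, and r was not computed without it. With values centred within each line, Pearson's r over the 12 libraries was 0.944 for MT1X with MT2A, 0.915 for MT1E with MT2A and 0.913 for MT1E with MT1X. MT2A against SLC30A1 gave -0.86 and against SLC39A10 -0.895, and SLC30A1 with SLC39A10 gave 0.933. Among 10010 genes with at least 100 normalized counts on average in each line, those most like MT2A were METTL1 (0.982), PTMS (0.981), NELFB (0.977), TPI1 (0.973) and PHLDA2 (0.973). Those most like MT1X were RPL12 (0.965), NUDCD3 (0.963), C12orf10 (0.962), RPS15 (0.959) and ELOF1 (0.958), and those most like SLC30A1 were STRADB (0.997), PDCD4 (0.997), ADAM10 (0.996), GALNT2 (0.994) and PBXIP1 (0.993). These values describe the same libraries, in which the dox groups and the depth are shared by all genes, and carry no test.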

How the data were processed

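RNA-seq was carried out on 12 libraries, 3 in each of 4 groups (2 iDox-shGOT1 lines, MIA PaCa-2 and Pa-Tu-8902, untreated or with dox). The authors sequenced strand-specific poly(A) libraries as 150-base read pairs, trimmed them with Trimmomatic 0.39, aligned them with STAR 2.5.2a to GRCh38 with GENCODE release 29 and deposited RSEM 1.3.1 expected counts. They also deposited TPM values and effective lengths per gene and transcript, which RSEM computed. 5.34% of the expected counts were not whole.

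Expected counts were rounded. A gene entered a fit if 3 or more of its libraries had 10 or more counts, and edgeR 4.0.16 (R 4.3.3) was run with TMM factors and its quasi-likelihood test, adjusted by Benjamini-Hochberg over all genes kept. Limits of 0.01 on the adjusted p and 1.5 on the fold follow the study's methods. Each line's dox groups, the untreated lines and the interaction over all 12 libraries were fitted. The standard error is the log2 fold change over the square root of F. On simulated counts, 195, 196, 186 and 185 of 200 genes changed by a log2 fold of 1 were called in these 4 fits. They were run on 14743, 14413, 15273 and 16043 genes, with 1, 0, 0 and 1 unchanged genes called. Smaller changes, and changes in genes with few counts, were not simulated, so these figures do not show how often such changes are missed. Alternatives were DESeq2 1.42.0 or its size factors, other filters, effective lengths as offsets, limma 3.58.1 on log2 TPM, a replicate block, other limits and each library left out.

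The members and lists were chosen with earlier results of these data known. Named genes were the 9 members, the listed genes that were called, and the 5 genes most like MT2A, MT1X and SLC30A1. Positions come from GENCODE release 44.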

Additional observations from a re-analysis of the deposited data

Results flagged for a closer look

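The 8 genes listed here were picked out because a test of the difference itself, the interaction contrast in edgeR, called their dox response different between the lines. Each value is the log2 fold change for Pa-Tu-8902 minus that for MIA PaCa-2. SLC30A1, the zinc exporter, had a difference of 0.70. SLC39A8 had -1.93 and SLC39A9, another zinc importer, had 0.65, which was not called in 3 of 20 alternatives. HMOX1 rose in both lines, and by more in Pa-Tu-8902, with a difference of 1.14. HSPH1, a heat shock protein, had -0.61 and was not called in 7 of 20 alternatives.

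Among the glucocorticoid-responsive genes, NR3C1 had a difference of 1.03, and KLF9 had 0.72, which was not called in 14 of 20. TSC22D3 had 2.49 and went opposite ways: its mean went from 14.3 to 34.6 normalized counts with dox in Pa-Tu-8902 and from 99.3 down to 42.5 for MIA PaCa-2, low counts in the first line.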

How the results depend on the processing

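Over 28 member values, 498 alternative values were computed. Of these, 468 kept their direction and their side of the limits, 5 lost a call, 17 gained one and 8 changed sign. With dox in Pa-Tu-8902, MT2A gained a call without untreated replicate 1 or dox replicate 2, and MT1X without dox replicate 2. All other gains came from dropping the fold limit on the main fit, which changes the definition of a call. With dox in Pa-Tu-8902, 1 member was called, against 6 at an adjusted p below 0.05 and 4 at one below 0.01. Both of these had no fold limit, and the latter was chosen after seeing the data. Leaving out 1 library gave 1 to 3. Of all 14949 genes tested there, 3792 higher and 3827 lower passed 0.05, and 38.1% passed 0.01. For MIA PaCa-2 the main count was 0, the same 2 limits gave 4 and 2, and leaving out 1 library gave 0 to 0. Of all 14589 genes tested there, 2922 higher and 3194 lower passed 0.05, and 27.2% passed 0.01. Between the untreated lines, 8 members were called, and 6 to 7 with 1 library left out. MT1F or MT1G then lacked enough libraries, and MT2A could drop under the fold limit (0.52, 0.55 and 0.58). The interaction gave 1 to 1.

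Values that changed sign were small. With dox in MIA PaCa-2, MT1G (0.01) was at -0.003 with no filter on low counts and ranged from -0.09 to 0.13 with 1 library left out, and MT1E (-0.18) ranged from -0.28 to 0.003. The interaction of MT1X (-0.09) ranged from -0.27 to 0.04. MTF1 between the untreated lines lost its call with limma (0.57 and 0.67). The cause was not tested.

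Equal replicate numbers did not mark shared deviations (correlations of same-numbered residuals from -0.131 to 0.13), so the numbers were not read as pairs. With the replicate block, 1, 0, 8 and 1 members were called in the dox comparisons of Pa-Tu-8902 and MIA PaCa-2, the untreated lines and the interaction, as without it, and SLC30A1 stayed at 1.03 in Pa-Tu-8902. Depth limits MT1F, MT1G and MT1M in the lines where they had 0 to 2 counts.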
